A study of Mus musculus with 4 samples.

Results

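The enzymes that modify and cross-link collagen were examined in cultures of 2 mouse cell types, dermal papilla cells (DPCs) and cells of the dermal sheath (DSCs). The set held 10 genes, chosen by symbol from the 51826 genes of the deposited count table, and it comprised the lysyl oxidases Lox, Loxl1, Loxl2, Loxl3 and Loxl4, the lysyl hydroxylases Plod1, Plod2 and Plod3, and the prolyl 4-hydroxylase subunits P4ha2 and P4ha3. The source was the whisker (vibrissa) follicle of EGFP-transgenic C57BL/6J mice aged 5 to 6 weeks, and the labels give the genotype as WT. All cultures were kept in DMEM and were sampled at passage 3 (low passage) and passage 9 (high passage). Each cell type at each passage gave 1 library, 4 in all, so no group had a replicate. Differences in culture or library preparation therefore cannot be told apart from passage or cell type, and the sources used here do not say how many animals gave each culture.

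Collagen chains are modified while they are being made and again after secretion. Prolyl 4-hydroxylase, a tetramer of catalytic alpha subunits with the beta subunit P4hb, hydroxylates proline and so stabilises the triple helix, and lysyl hydroxylases of the Plod family hydroxylate lysine. Outside the cell, the copper-dependent lysyl oxidases convert lysine and hydroxylysine of collagen, and lysine of elastin, into aldehydes that form covalent cross-links. Plod2 acts on lysines of the telopeptides at the chain ends, Plod1 mainly on lysines in the helix, and Plod3 also carries glycosyltransferase activity. In the hair follicle, the papilla and the sheath are its mesenchymal parts and make a collagen-rich matrix.

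The lysyl oxidases share a catalytic domain whose copper-binding site carries several histidines. The coding bases of this site are shown for 4 of the 5 family members because Loxl2, the member that differed most between the libraries, has a near-identical relative in the genome that bears on its counts. Each window of 33 bases was read from GENCODE M21 transcripts (genome build GRCm38), is written 5′ to 3′ on the coding strand and spans 2 neighbouring exons, so its coordinates include an intron. Capitals mark the bases that differ from Loxl2.
Loxl1, chr9:58293720-58294381, minus strand, exons 3 and 4: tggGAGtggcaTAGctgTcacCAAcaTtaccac
Loxl2, chr14:69682316-69689037, plus strand, exons 10 and 11: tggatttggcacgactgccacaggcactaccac
Loxl3, chr6:83049995-83050125, plus strand, exons 10 and 11: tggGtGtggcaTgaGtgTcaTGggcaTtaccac
Loxl4, chr19:42598807-42599899, minus strand, exons 11 and 12: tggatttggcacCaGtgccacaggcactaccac
Loxl4 differed from Loxl2 at 2 of the 33 bases, Loxl3 at 8 and Loxl1 at 11. The transcript of Gm21451, a gene at chr14:69390854-69480287, held the Loxl2 window without a difference. Over whole transcripts, Gm21451 shared 2299 of the 5356 distinct 50-base windows of Loxl2, while the 10 enzyme genes shared 0 such windows among themselves.

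All 10 genes were detected in each library, with between 1913 and 200433 counts per gene. The 4 libraries held between 34981284 and 47604059 counts, of which the 10 genes took 0.537% (passage 3) and 0.319% (passage 9) in DPCs and 0.777% and 0.563% in DSCs. Of the cell type markers, the summed level of 6 fibroblast and mesenchyme genes was between 7161 and 26886 CPM (counts scaled to a library of fixed size). That of 6 keratinocyte genes was at most 0.112 CPM, with Krt5, Krt14, Krt15 and Cdh1 at 0 in every library, and Tyrp1, Dct, Mlana and Tyr of the melanocyte list were also at 0. Immune, endothelial, Schwann and skeletal muscle lists each summed to at most 48.6 CPM, and all 4 sums were lower at passage 9 in both cell types. Dermal papilla markers summed to 671 CPM in low-passage DPCs against 52.0 CPM in low-passage DSCs, but to 454 and 456 CPM at high passage, mostly through Crabp1, and Wif1 was at 0 in every library. Dermal sheath and smooth muscle markers summed to 9437 CPM at passage 3 and 3494 CPM at passage 9 in DPCs, against 7482 and 6518 CPM in DSCs. Acta2 and Tagln made up most of these sums, and single markers went other ways, with Itga8 at 186 and 968 CPM in DPCs and 44.2 and 511 CPM in DSCs. Myh11 went from 78.4 to 4.68 CPM in DPCs and from 28.0 to 69.4 CPM in DSCs, and Cnn1 from 152 to 46.9 CPM and from 88.5 to 176 CPM. The part of cell composition in the differences below was not tested, and fewer cells of a type cannot be told apart from less RNA per cell.

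The first question was how the enzymes differed between low and high passage. Loxl2 (chr14:69609068-69695834), a lysyl oxidase with scavenger receptor domains, fell 13.2-fold with passage in DPCs and was 1.28-fold lower in DSCs. Its level was 814 CPM at passage 3 and 61.6 CPM at passage 9 in DPCs, against 445 and 348 CPM in DSCs. The high-passage DPC library thus stood alone at the low end. On the log2 scale the change was -3.72 in DPCs (95% counting interval -3.79 to -3.66) and -0.35 in DSCs (-0.39 to -0.32). These intervals are exact (Clopper-Pearson) for the split of the counts between the libraries compared, and they cover counting error only, not differences between cultures. Gm21451, which carries the same copper-site bases, had 5280 counts at passage 3 and 349 at passage 9 in DPCs, against 3095 and 3071 in DSCs. It took between 13.6% and 16.2% of the counts of the pair in a library, and the summed counts of the pair gave log2 changes of -3.75 (DPCs) and -0.34 (DSCs). How reads were shared between the copies is not stated in the sources used here, so the level of each copy is uncertain.

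**Figure D1:**
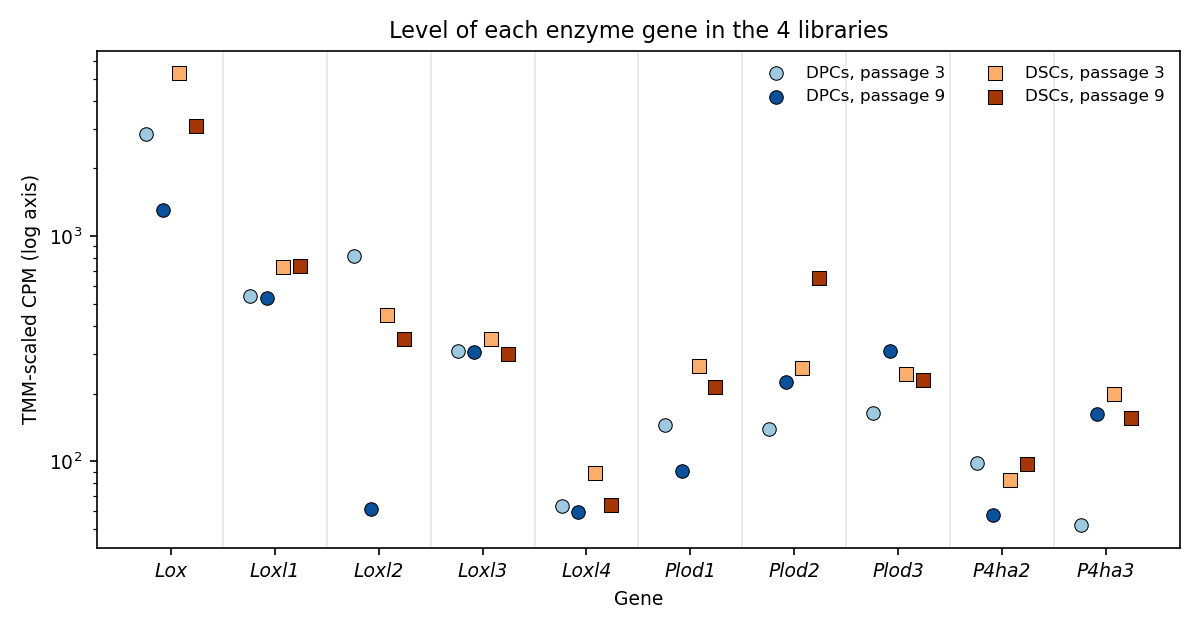
TMM-scaled CPM (log axis) of the 10 enzyme genes in the 4 libraries, 1 point per library, circles for DPCs and squares for DSCs, light for passage 3 and dark for passage 9. Lox was the most abundant by CPM in every library, and Loxl2 at 61.6 CPM in high-passage DPCs lay far below its other libraries, which held 348 to 814 CPM.

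Lox (chr18:52516069-52529867), the founding member of the family and an oxidase of both collagen and elastin, was lower at high passage in both cell types without reaching 4-fold. DPCs held 2837 CPM of Lox at passage 3 and 1306 CPM at passage 9, and DSCs held 5289 and 3093 CPM. The difference was 2.17-fold in DPCs (log2 -1.12, interval -1.13 to -1.10) and 1.71-fold in DSCs (log2 -0.77, -0.78 to -0.76). Within each passage the DPC library held less Lox than the DSC library, and low-passage DPCs and high-passage DSCs lay close together.

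The remaining lysyl oxidases differed little with passage. Loxl1 (chr9:58287738-58313186), which is known for its role in elastic fibre upkeep, held 539.9 CPM at passage 3 and 529 CPM at passage 9 in DPCs, and 727 and 735 CPM in DSCs. The log2 change was -0.03 in DPCs and 0.02 in DSCs. Loxl3 (chr6:83034173-83052562) held 309.7, 307, 350.4 and 301 CPM in the same order, with log2 changes of -0.01 and -0.22. Loxl4 (chr19:42593982-42612813), the least abundant of the family by CPM, held 63.1, 59.8, 88.5 and 63.7 CPM, with log2 changes of -0.08 and -0.47. In DPCs the counting intervals of Loxl3 and Loxl4 included 0, as did that of Loxl1 in DSCs. The exons of Loxl3 overlap those of Htra2 on the other strand over 11.6% of their length, and the use of strand in counting is not stated.

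**Figure D2:**
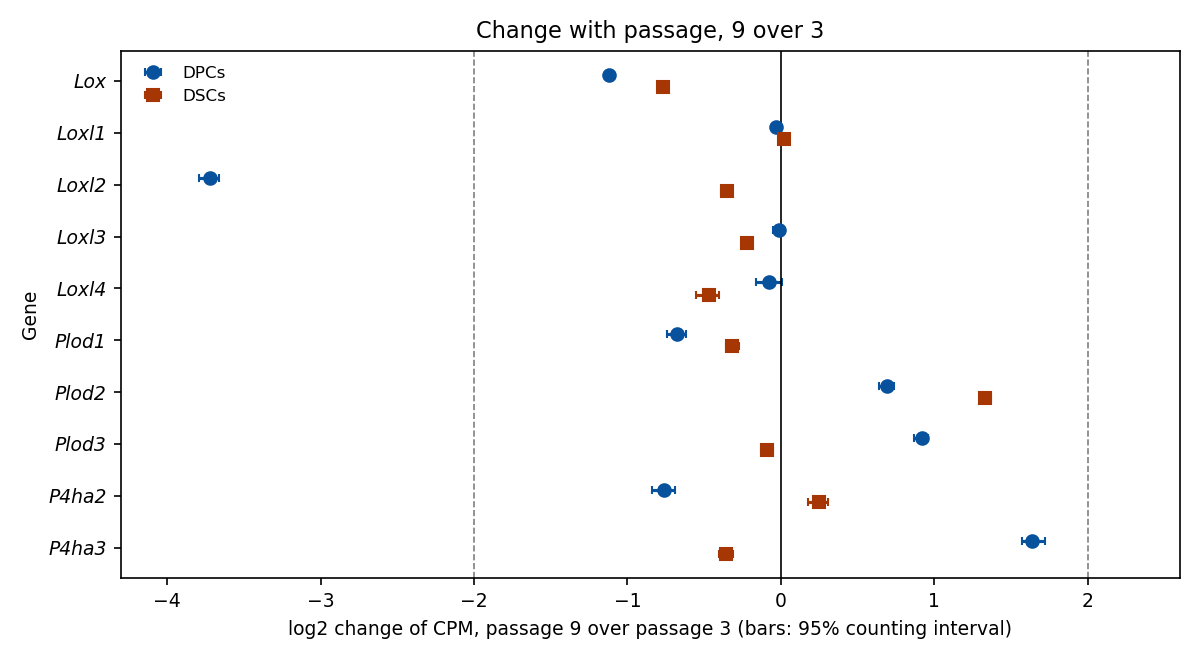
log2 change of each enzyme gene from passage 3 to passage 9 (horizontal axis) in DPCs (circles) and DSCs (squares), with 95% counting intervals as bars that are often hidden by the symbols and dashed lines at 4-fold. Loxl2 in DPCs, at -3.72, is the point beyond a dashed line, and P4ha2, P4ha3 and Plod3 lie on opposite sides of 0 in the 2 cell types.

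The 3 lysyl hydroxylases moved apart from each other. Plod2 (chr9:92542223-92608428), the telopeptide lysyl hydroxylase, was higher at high passage in both cell types, from 139 to 225 CPM in DPCs and from 259 to 654 CPM in DSCs. These were differences of 1.61-fold (log2 0.69, interval 0.64 to 0.74) and 2.52-fold (log2 1.33, 1.30 to 1.37), and high-passage DSCs stood above the other 3 libraries. Plod1 (chr4:147909753-147936767), the hydroxylase of helical lysines, was lower at high passage in both. It went from 145 to 90.7 CPM in DPCs (log2 -0.68, -0.74 to -0.62) and from 265 to 213 CPM in DSCs (log2 -0.32, -0.36 to -0.27). Plod3 (chr5:136987019-136996648), which also adds glucose and galactose to hydroxylysine, held 164 CPM in low-passage and 310.3 CPM in high-passage DPCs, against 244 and 229 CPM in DSCs. Its log2 change was 0.92 in DPCs (0.87 to 0.96) and -0.09 in DSCs (-0.13 to -0.05). The exons of Plod3 overlap those of Znhit1 on the other strand over 11.7% of their length, and those of Plod2 overlap Gm38391 over 6.42%.

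The prolyl 4-hydroxylase alpha subunits P4ha2 and P4ha3 differed with passage in opposite directions, and each did so in opposite directions in the 2 cell types. P4ha3 (chr7:100285520-100319699) was at 52.0 CPM in DPCs of passage 3 and at 163 CPM in those of passage 9, and DSCs held 199 and 155 CPM. Low-passage DPCs were the outlying library, and the difference in DPCs was 3.12-fold (log2 1.64, interval 1.57 to 1.72), short of the 4-fold threshold. In DSCs P4ha3 was 1.28-fold lower at high passage (log2 -0.36, -0.40 to -0.31). P4ha2 (chr11:54100095-54131665) held 98.4 CPM at passage 3 and 57.9 CPM at passage 9 in DPCs, and 82.4 and 97.7 CPM in DSCs. Its log2 change was -0.76 in DPCs (-0.84 to -0.69) and 0.25 in DSCs (0.18 to 0.31). P4ha1 (chr10:59323296-59373304), the third alpha subunit and a gene outside the set, differed less, with log2 changes of 0.26 in DPCs and 0.42 in DSCs.

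Across the set, 1 of the 10 genes passed 4-fold with passage in DPCs, and this was the fall of Loxl2. Among the 16734 genes with a mean count of at least 10, 4.36% were at least 4-fold lower and 5.58% at least 4-fold higher in DPCs. None of the 10 genes passed 4-fold in DSCs, where 1.16% of all genes were that much lower and 2.67% that much higher. At 2-fold in DPCs, 2 of the 10 genes were lower (Lox and Loxl2) and 1 was higher (P4ha3), against 15.0% and 16.1% of all genes. At 2-fold in DSCs, 1 of the 10 genes was higher (Plod2) and 0 were lower, against 8.55% and 6.21% of all genes. These shares are near the background of the libraries. The median log2 change of the 10 genes was -0.05 in DPCs and -0.27 in DSCs, against 0.03 and 0.00 over all tested genes.

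Because CPM does not allow for transcript length, the make-up of each family was taken from the deposited FPKM (fragments scaled by transcript length and library depth), as the share of the family's summed FPKM. Lox held the largest share of lysyl oxidase FPKM in every library, at 64.3% (passage 3) and 55.7% (passage 9) in DPCs and 76.9% and 67.9% in DSCs. The share of Loxl2 was 12.9% in low-passage DPCs and 1.82% in high-passage DPCs, with 4.51% and 5.34% in DSCs. In high-passage DPCs it was thus below the 2.71% of Loxl4. The summed FPKM of the 5 genes was 1094 at passage 3 and 580.4 at passage 9 in DPCs, and 1615 and 1045 in DSCs. The high-passage DPC library thus held the lowest summed level.

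The leading lysyl hydroxylase by FPKM share was not the same in all libraries. At low passage the 3 genes held between 28.4% and 38.0% in DPCs and between 31.3% and 35.6% in DSCs. By counts per kilobase of annotated exon the range in low-passage DPCs was wider, from 25.7% (Plod1) to 43.4% (Plod3). At high passage Plod3 took 52.5% in DPCs and Plod2 took 56.6% in DSCs. The share of Plod1 went from 33.6% to 14.8% in DPCs and from 35.6% to 20.7% in DSCs. Among the alpha subunits, P4ha3 held 16.8% in low-passage DPCs and 45.8% in high-passage DPCs, while P4ha2 held 37.8% and 14.7%. In DSCs the share of P4ha3 was 42.5% at low and 33.4% at high passage. With counts per kilobase of annotated exon in place of FPKM, 40 of the 44 shares stayed within 1.5 times, and the exceptions were the 4 shares of P4ha2, which became 17.3%, 7.04%, 8.40% and 9.06%. The order of P4ha1 and P4ha3 depended on the measure. P4ha3 led P4ha1 by FPKM in high-passage DPCs (45.8% against 39.5%) and low-passage DSCs (42.5% against 37.3%). By counts per kilobase P4ha1 led P4ha3 there, with 53.6% against 39.3% and 51.1% against 40.4%.

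**Figure D3:**
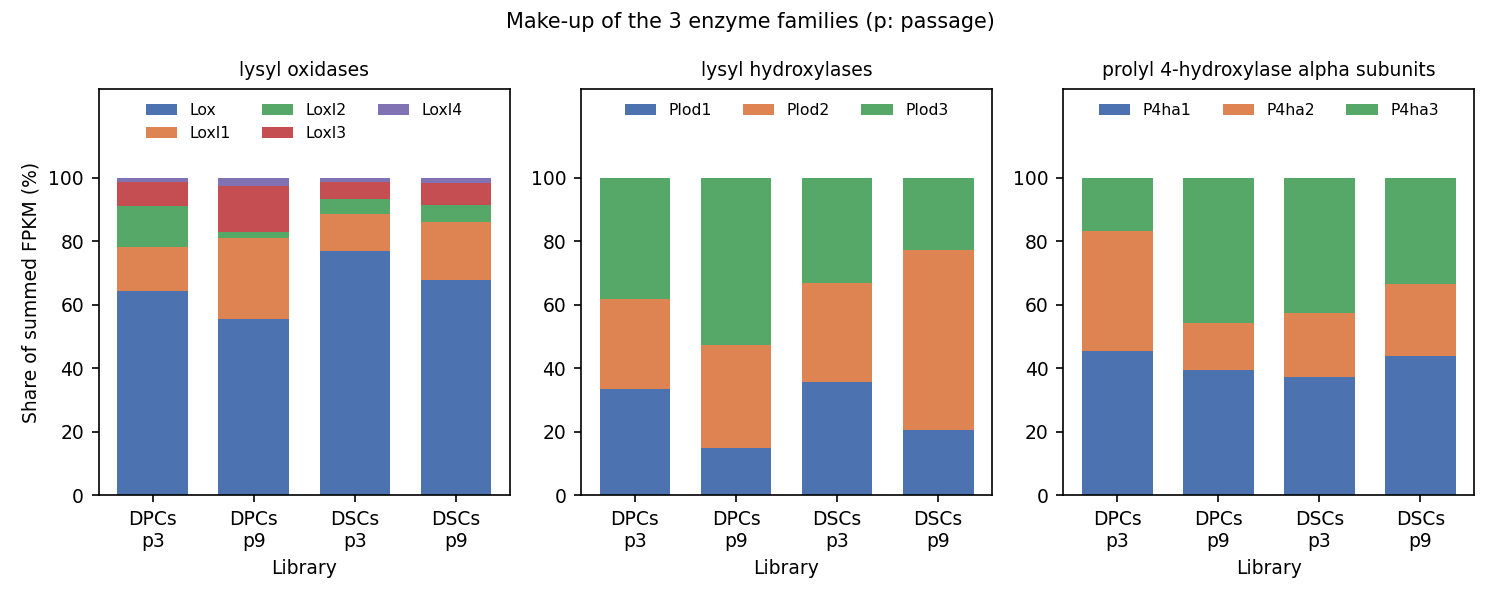
Share of the summed FPKM (vertical axis, percent) taken by each gene of the lysyl oxidases, the lysyl hydroxylases and the prolyl 4-hydroxylase alpha subunits, with 1 bar per library and p for passage. Lox fills over 55% of each lysyl oxidase bar, and the largest lysyl hydroxylase block at passage 9 is Plod3 in DPCs and Plod2 in DSCs.

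The next question was how DPCs and DSCs differed within a passage. At passage 3 none of the 10 genes differed by 4-fold, a threshold that 1.52% of all tested genes passed as higher in DPCs and 2.77% as lower. P4ha3 came nearest, 3.83-fold lower in DPCs (log2 -1.94, interval -2.01 to -1.86), and it passed 4-fold on the deposited FPKM (log2 -2.12). It was the only gene of the 10 past 2-fold, a threshold that 7.86% of all genes passed as lower and 5.43% as higher in DPCs. Of the other genes, Lox (log2 -0.90), Plod2 (-0.90) and Plod1 (-0.87) were lower in DPCs, while Loxl2 (0.87) and P4ha2 (0.26) were higher.

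At passage 9, Loxl2 was 5.65-fold lower in DPCs than in DSCs (log2 -2.50, interval -2.56 to -2.44), whereas at passage 3 it had been 1.83-fold higher. Summed with Gm21451, the log2 differences were -2.54 at passage 9 and 0.86 at passage 3. It was the only gene of the 10 past 4-fold, against 3.91% of all tested genes lower and 2.50% higher. At 2-fold, 4 of the 10 genes were lower in DPCs, namely Loxl2, Plod2 (2.91-fold), Lox (2.37-fold) and Plod1 (2.35-fold), and 0 were higher, against 11.0% and 9.11% of all genes. P4ha3 differed by 1.05-fold at passage 9 (log2 0.06, 0.01 to 0.11), but the interval included 0 (-0.01 to 0.14) when every count was divided by 2 to allow for both mates being counted. The median log2 difference of the 10 genes was -0.53 at passage 3 and -0.61 at passage 9, against 0.00 and -0.01 over all tested genes. The passage and cell type comparisons use the same 4 libraries, so they are not independent of each other.

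**Figure D4:**
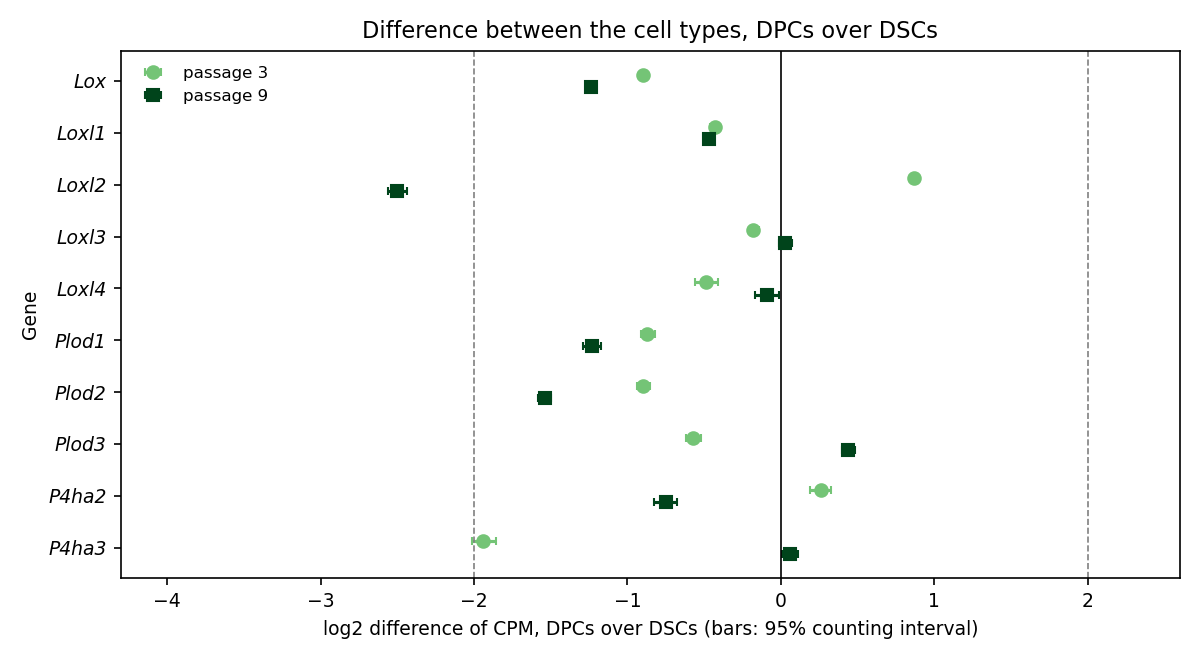
log2 difference of each enzyme gene between DPCs and DSCs (horizontal axis, negative where DPCs were lower) at passage 3 (circles) and passage 9 (squares), with 95% counting intervals as bars and dashed lines at 4-fold. Lox, Plod1 and Plod2 lie left of 0 at both passages, and Loxl2 moves from 0.87 to -2.50.

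A model with cell type and passage as additive terms asked whether an effect was common to both cell types or both passages. Its 1 residual degree of freedom holds both the difference in response between the cell types and the differences between single cultures and libraries, which cannot be told apart. With edgeR's quasi-likelihood test, 0% of all genes and 0 of the 10 enzyme genes reached an adjusted p of 0.05 for passage or for cell type. Without adjustment, p was under 0.05 for 2822 genes (passage) and 1381 genes (cell type). Of the 10, Plod2 had the smallest adjusted p for passage (edgeR, 0.237, log2 1.01), and Plod1 the smallest for cell type (edgeR, 0.298, log2 -1.05). DESeq2 called 5.76% of all genes for passage, among them Lox (adjusted p = 0.0259, log2 -0.95) and Plod2 (adjusted p = 0.0311, log2 1.01). For cell type DESeq2 called 2.95% of all genes, including Plod2 (adjusted p = 0.00872), Lox (adjusted p = 0.0139) and Plod1 (adjusted p = 0.0276), all lower in DPCs.

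The partners of the hydroxylases inside the cell were then described from lists of pathway genes. Of 8 prolyl hydroxylase partners, 1 rose 4-fold with passage in DPCs and 0 fell, against 5.58% and 4.36% of all tested genes, and the median log2 change was 0.37 (DPCs) and 0.25 (DSCs). The gene that rose was P3h2, a prolyl 3-hydroxylase best known for modifying basement membrane collagen, at 391 counts in low-passage and 9021 counts in high-passage DPCs (log2 4.56, interval 4.42 to 4.71) against 0.20 in DSCs. P4hb, the shared beta subunit, had log2 changes of -0.12 and 0.11. None of the 8 glycosylation and folding genes passed 4-fold with passage in either cell type. The shares of all tested genes were those above in DPCs, and 1.16% lower and 2.67% higher in DSCs. Serpinh1, the collagen chaperone Hsp47, was 3.35-fold lower at high passage in DPCs (log2 -1.75) and 2.94-fold lower in DSCs (log2 -1.56).

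The substrates of the enzymes were lower at high passage in DPCs. Of the 8 fibrillar collagen and elastin genes with counts in DPCs, 3 fell 4-fold (Eln, Col3a1 and Col1a1) and 7 were at least 2-fold lower, against 4.36% and 15.0% of all tested genes, and their median log2 change was -1.72 against 0.03. Elastin (Eln) went from 4358 to 38 counts in DPCs (log2 -6.74) and from 466 to 240 counts in DSCs (-1.21). Col3a1 had log2 changes of -3.0 and 0.38 in the same order, and the chains of collagen I had -2.57 and -0.37 (Col1a1) and -1.31 and -0.26 (Col1a2). In DSCs the median was -0.37 over 9 genes, and Col2a1, with 203 counts at low and 2 at high passage (log2 -5.83, interval -9.99 to -5.06), was the gene that fell 4-fold. In DSCs 1 of the 9 genes was thus 4-fold lower and 2 were at least 2-fold lower, against 1.16% and 6.21% of all tested genes. Col2a1 had 0 counts in both DPC libraries.

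The ratio of the enzymes' summed levels to those of the collagens below differed most in high-passage DPCs. This ratio was chosen after the values were seen. The FPKM of Col1a1, Col1a2, Col3a1, Col5a1 and Col5a2 summed to 3128 at passage 3 and 952 at passage 9 in DPCs, and to 4436 and 3539 in DSCs. Per 100 of this collagen FPKM, the 3 lysyl hydroxylases held 4.07, 19.0, 4.58 and 7.79 FPKM in the same order. The 3 prolyl 4-hydroxylase alpha subunits held 4.12, 18.5, 5.01 and 6.30 FPKM, and the 5 lysyl oxidases 35.0, 61.0, 36.4 and 29.5 FPKM. The high-passage DPC library was the highest of the 4 for all 3 families, and it also held the lowest collagen sum. Its summed lysyl oxidase FPKM was itself the lowest of the 4, at 580.4 against 1094 in low-passage DPCs. The summed lysyl hydroxylase FPKM went from 127 to 181 in DPCs and from 203 to 276 in DSCs. That of the alpha subunits went from 129 to 177 in DPCs and from 222 to 223 in DSCs.

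Among the 7 genes of propeptide processing, which trims procollagen and activates pro-lysyl oxidase, 2 fell 4-fold with passage in DPCs and 1 rose, against 4.36% and 5.58% of all tested genes. The list's median was -0.20 in DPCs and 0.20 in DSCs. Pcolce2, an enhancer of procollagen C-proteinase, had log2 changes of -3.27 and -1.73 in the same order, and the proteinase Tll1 had -2.07 and -0.97. Adamts3, a procollagen N-proteinase, had 0 counts in low-passage and 259 in high-passage DPCs, 88.5-fold higher when the 0 was set to a floor of 3 counts. The lower end of its log2 interval was 6.16, or 5.15 with halved counts. Bmp1, the proteinase that also processes pro-lysyl oxidase, had log2 changes of -0.20 and 0.30. Of 6 docking proteins for lysyl oxidases, 1 fell 4-fold in DPCs, the microfibril protein Fbn1 (log2 -2.25 in DPCs and -0.75 in DSCs), against 4.36% of all tested genes, and the list's medians were -0.99 and -0.24.

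None of the 5 genes of copper and ascorbate supply passed 4-fold with passage. Over all tested genes, 4.36% were that much lower and 5.58% higher in DPCs, and 1.16% and 2.67% in DSCs. The medians were 0.51 in DPCs and 0.03 in DSCs, with 3 genes higher and 2 lower at high passage in each cell type. Atp7a, the pump that delivers copper to secreted enzymes, had log2 changes of 0.51 and -0.16. Slc31a1 of the same list was lower at high passage in both, with -1.7 in DPCs and -0.65 in DSCs. Of 10 genes of the hypoxia response, a programme known to include Plod2 and P4ha1, 2 were at least 2-fold lower and 0 higher at high passage in DPCs, against 15.0% and 16.1% of all tested genes, and the median was -0.47. In DSCs 2 were at least 2-fold higher and 0 lower, against 8.55% and 6.21%, and the median was 0.47. Of this list only Egln3, an oxygen-sensing prolyl hydroxylase, passed 4-fold (log2 -2.21 in DPCs and 0.46 in DSCs). The 6 genes of the TGF-beta response, which is known to induce Lox, had median changes of -0.96 (DPCs) and -0.10 (DSCs). In both cell types 0 of them passed 4-fold, against the shares of all tested genes given above. At 2-fold in DPCs, 3 were lower and 0 higher, against 15.0% and 16.1% of all tested genes. At 2-fold in DSCs, 0 were lower and 0 higher, against 6.21% and 8.55%.

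**Figure D5:**
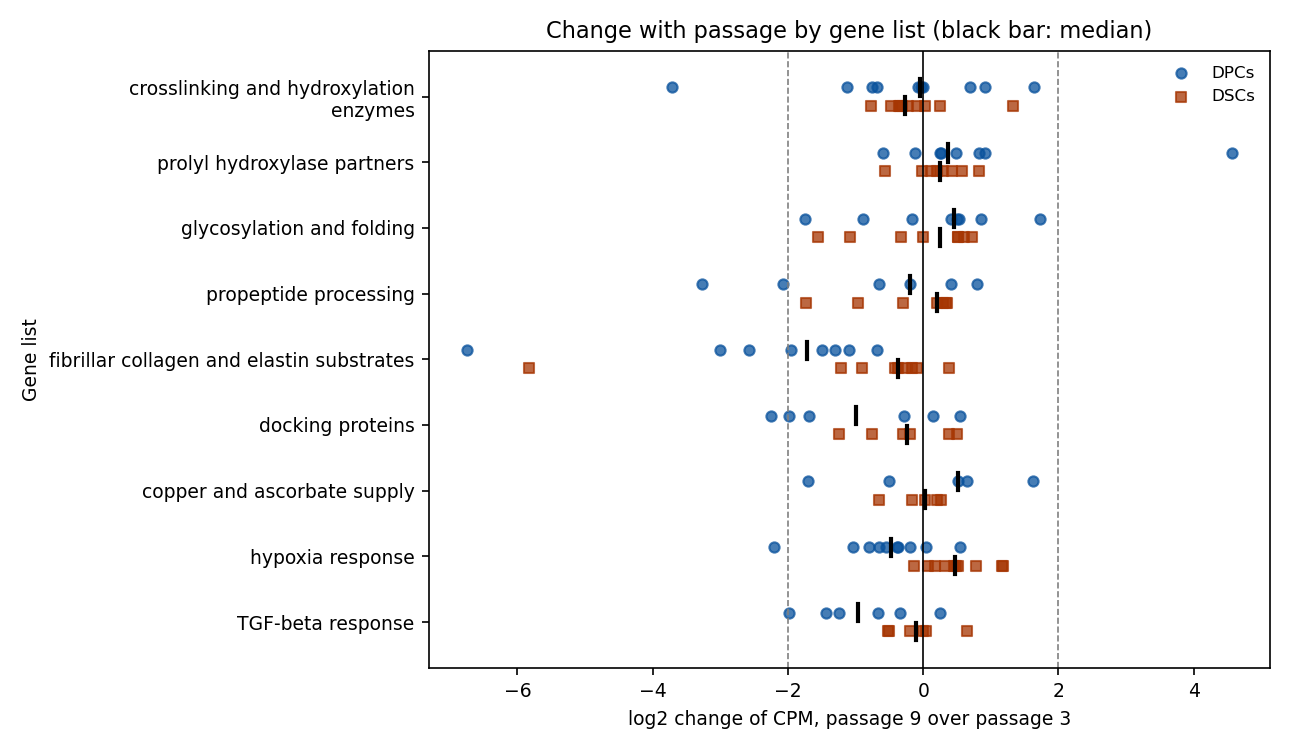
log2 change from passage 3 to passage 9 (horizontal axis) of the genes of each list in DPCs (circles) and DSCs (squares), with 1 point per gene, black bars at the medians and dashed lines at 4-fold. Genes at 0 counts in a library of the comparison have no point. The collagen and elastin substrates lie lowest in DPCs, with a median of -1.72, while the 10 enzymes spread from -3.72 to 1.64 around -0.05.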

How the data were processed

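RNA sequencing was examined for DPCs and DSCs at passages 3 and 9, with 1 library per group. The deposited counts are whole numbers per gene without normalization, and the deposited FPKM are values that the authors had divided by transcript length and library depth. According to the methods, mRNA was selected with poly-T beads and sequenced in pairs, whereas the labels name a TruSeq kit. The submitters' processing notes name Bowtie 0.12.2 and the builds mm8 and mm9 without a role. Positions in the deposited tables are those of GRCm38, since 9 of the 10 enzyme genes had the start and end of GENCODE M21 and Lox differed only in its start. The counting program and its use of strand are not given in the sources used here. Between 66.9% and 70.2% of counts from 2 to 5 in a library were even. Counting both mates of a pair raises this share. The share without it was not computed, so how mates were counted is not settled.

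Counts were scaled with TMM in edgeR 4.0.16 (R 4.3.3, limma 3.58.1), and 16734 genes with a mean count of at least 10 were kept, among them all 10 enzyme genes. Changes are given as log2 CPM (prior count 2) of a library minus that of the other. A comparison of 2 single libraries leaves no residual degree of freedom, so genes were called there at 4-fold, the threshold the study states, and 2-fold was used as a description. Intervals at 95% were exact Clopper-Pearson intervals and cover counting error only. Additive terms for cell type and passage were tested in edgeR (quasi-likelihood, Benjamini-Hochberg adjustment over all tested genes) and, as an alternative, in DESeq2 1.42.0. Sequences were read from GENCODE M21 with Python 3.11.15. Ccn2 was matched by its older symbol Ctgf.

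The enzyme genes, pathway lists and marker lists were chosen with earlier results of these data known. All enzyme genes are named. Of a pathway list, at most 3 genes past 4-fold with passage in either cell type are named, besides P4ha1, P4hb, Serpinh1, Col1a1, Col1a2, Bmp1 and Atp7a. Slc31a1 is also named, because it went the other way from Atp7a in DPCs. Alternatives were other scalings (total counts, DESeq2 size factors, upper quartile), other count minimums (none and 100), prior counts of 0.5 and 10, TMM without the 1% most abundant genes, FPKM with pseudocounts of 0.1 and 1, counts per kilobase of exon and halved counts. Summing Loxl2 with Gm21451 was chosen after seeing the data.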

Additional observations from a re-analysis of the deposited data

Results flagged for a closer look

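Some genes had passage changes on opposite sides of 0 in DPCs and DSCs, with counting intervals that excluded 0 in both. Each is given as the log2 change in DPCs minus that in DSCs. With 1 library per group the difference was not tested, and the intervals cover counting error only. P4ha3 had a difference of 2.0 (interval 1.91 to 2.09), higher at high passage in DPCs and lower in DSCs. Plod3 had a difference of 1.01 (0.95 to 1.07) in the same sense. P4ha2 had a difference of -1.01 (-1.11 to -0.91), lower at high passage in DPCs and higher in DSCs. Among the other named genes of the pathway, the difference was -3.38 for Col3a1, -2.67 for Egln3, -0.51 for Bmp1, -0.24 for P4hb and 0.67 for Atp7a. With halved counts, the DSC intervals of Egln3 (-0.09 to 1.06) and Atp7a (-0.33 to 0.01) included 0, so for these genes the opposite sides rest on how mates were counted. Loxl2 had the largest difference of the 10 enzyme genes, -3.37 (-3.44 to -3.30), and its change was negative in both cell types.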

How the results depend on the processing

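Each of the 40 log2 values of the enzyme genes (10 genes in 4 comparisons) was recomputed under the other scalings, prior counts and count minimums and with FPKM. Of these values, 37 did not change sign, although Loxl1 with passage in DPCs reached 0.0 (-0.07 to 0.0). The exceptions were Loxl3 with passage in DPCs (-0.05 to 0.02), Loxl1 with passage in DSCs (-0.02 to 0.02) and Loxl4 between the cell types at passage 9 (-0.11 to 0.03). Loxl2 stayed past 4-fold, at -3.76 to -3.62 with passage in DPCs and -2.52 to -2.29 between the cell types at passage 9. P4ha3 at passage 3 ranged from -2.12 to -1.85, so that with FPKM and either pseudocount the number of enzyme genes at least 4-fold lower in DPCs was 1 instead of 0. The median difference at passage 3 (-0.53) was -0.44 with total counts, -0.45 with FPKM and a pseudocount of 0.1, and -0.43 with a pseudocount of 1. At passage 9 the median (-0.61) was -0.51 with total counts and -0.67 with FPKM and a pseudocount of 0.1. The additive model called 2 enzyme genes for passage and 3 for cell type with DESeq2, against 0 with edgeR, where the count over all genes for cell type was 0, or 5 with DESeq2-style size factors and 13 with a minimum of 100. The cause was not tested. Of the 40 counting intervals, 36 excluded 0, and 33 did so with halved counts. Those that no longer did were Loxl1 with passage in DPCs, and Loxl4 and P4ha3 between the cell types at passage 9. The labels give no replicate numbers, so the only block available was cell type or passage, as in the additive model. Depth set no limit for the enzyme genes, each with at least 1913 counts, but with 1 library per group the spread between cultures is unknown.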
